A study of Mus musculus with 20 samples.

Results

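The immunoglobulin heavy chain (Igh) locus was defined as all genes of GENCODE vM21 basic on mouse chromosome 12 whose symbol starts with Ighv, Ighd, Ighj, Ighm, Ighg, Ighe or Igha, with 50 kb added outside the first and the last of them. These were 217 genes, namely 185 variable genes of which 70 are pseudogenes, 20 diversity genes, 4 joining genes and 8 constant genes. With its flanks the locus spans chr12:113204830-116060093 of mm10, or 2.86 Mb. The 12 peak lists held 93 peaks there, of 136043 in all, and overlapping peaks of any list were joined into 37 sites.

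The lists come from ChIP-seq of CTCF, MAZ and the cohesin subunit RAD21 in E14 mouse embryonic stem cells (mESCs) grown with LIF and 2i, in which CTCF carries an auxin-inducible degron. Untreated cells are called WT here and still carry the degron, cells given auxin for 2 days are ΔCTCF, and a Maz knockout made in the degron line, labelled B2 and untreated with auxin, is ΔMAZ. The same knockout cells with auxin for 2 days are ΔCTCF/ΔMAZ. For CTCF and MAZ the labels name 2 samples per condition, of which 1 was used, and the other 8 samples in all were not analysed here. RAD21 has 1 sample per condition. With 1 list per antibody and condition, no spread between replicates could be taken and no difference below has a test. All ΔMAZ and ΔCTCF/ΔMAZ values rest on the B2 derivative alone. RNA was not measured in these files, and that the locus is silent in mESCs is background knowledge.

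The heavy chain locus is assembled in developing B cells, where a diversity gene is first joined to a joining gene and a variable gene is then joined to both. Cohesin extrudes loops along chromatin and is halted by CTCF, mainly where the CTCF motif points toward the incoming loop. In B-lineage cells, CTCF sites near the variable genes, in the interval between variable and diversity genes, and beyond the last constant gene are known to shape which variable genes come near the diversity and joining genes. The genes are transcribed from the variable toward the constant end on the − strand for 183 of the 185 variable genes, so the lowest coordinate is the 3' end of the locus.

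CTCF occupied the locus in WT mESCs at 28 peaks, and 1 of them overlapped a peak of the ΔCTCF list, or 3.57%, beside 8.83% of all CTCF WT peaks. The 36 sites with CTCF in WT or ΔMAZ were an array of 8 beyond the constant genes, 1 among the diversity genes, 24 among the variable genes and 3 in the 5' flank, and 1 further site carried RAD21 alone. No peak of any of the 12 lists lay in the 174 kb between Igha and the joining genes. A CTCF motif match is a stretch of 20 bases that reached 9.36 bits against a matrix built from CTCF WT peaks off chromosome 12, and it is called strong from 17.9 bits, the median at CTCF WT summits. Every match at the array and at the diversity site lay on the + strand, and every match at a site within the variable genes lay on the − strand, so that the sets faced each other. The constant subregion held a pair of strong matches in unique sequence, one on each strand and one of them within Igha, and neither had a peak.

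**Figure D1:**
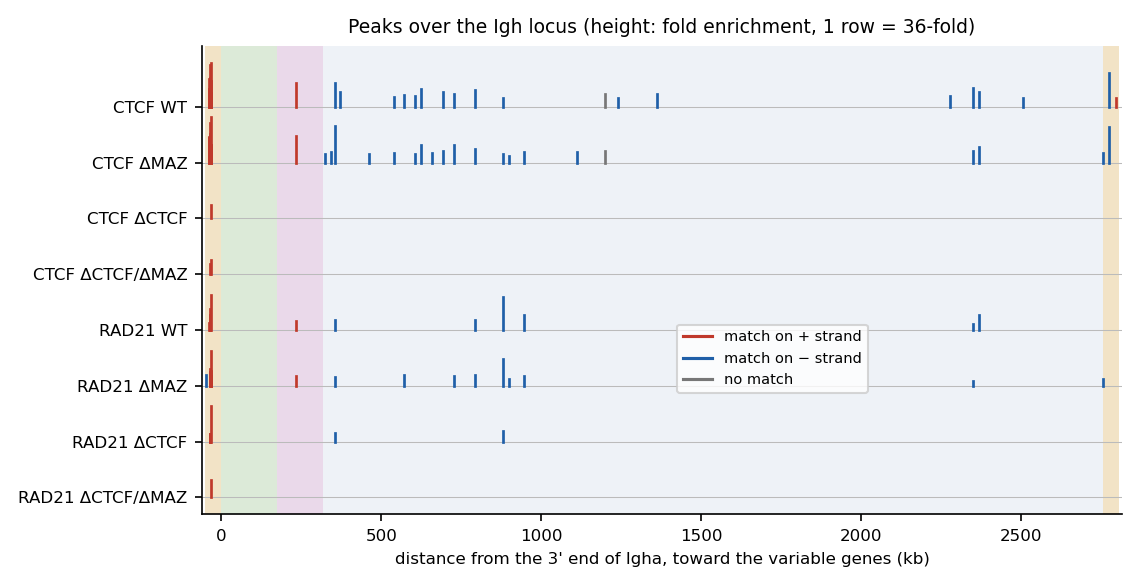
Peaks of the 8 CTCF and RAD21 lists over the Igh locus. The horizontal axis gives the distance of each site from the 3' end of Igha in kb, each row is 1 list, line height gives fold enrichment and colour gives the strand of the CTCF motif match. Shading marks, from left, the 3' flank, constant, diversity and joining, variable and 5' flank subregions. The + strand matches of the array and the diversity site sit at the left, and the − strand matches fill the variable genes. A − strand match also lies at the left edge, in the 3' flank, and a + strand match at the right edge, in the 5' flank.

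Peak density followed the subregions. The 28 CTCF WT peaks correspond to 9.81 per Mb (95% exact Poisson interval 6.52 to 14.2), beside 8.07 per Mb on chromosome 12 and 9.68 over all chromosomes. The 3' flank held 8 of them in 50 kb, or 160.0 per Mb (69.1 to 315), and the 2.44 Mb of variable genes held 17, or 6.98 per Mb (4.06 to 11.2). ΔMAZ cells had the same 8 peaks in the 3' flank and 18 in the variable genes, or 7.39 per Mb (4.38 to 11.7). The diversity and joining subregion held 1 peak in 144 kb in each of those lists, and the constant subregion held 0, which allows up to 21.2 per Mb. ΔCTCF cells had 1 CTCF peak in the whole locus and ΔCTCF/ΔMAZ cells had 2, all in the 3' flank.

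RAD21 was sparser than CTCF. The 11 RAD21 WT peaks correspond to 3.85 per Mb (1.92 to 6.89), beside 6.48 per Mb on chromosome 12 and 7.47 over all chromosomes, and per Mb of sequence that is unique in the genome the values were 5.13 in the locus and 7.41 on chromosome 12. Of these, 4 lay in the 3' flank, 1 at the diversity site and 6 among the variable genes. ΔMAZ cells had 16 RAD21 peaks in the locus, ΔCTCF cells had 5 and ΔCTCF/ΔMAZ cells had 1. MAZ, a zinc finger protein that binds G-rich promoters, had 0 peaks in the locus in each of its 4 lists, which allows up to 1.29 per Mb, beside 1.86 per Mb on chromosome 12 in WT and 2.02 in ΔCTCF. The lists of ΔMAZ and ΔCTCF/ΔMAZ held 33 MAZ peaks each and 0 on chromosome 12, so that their 0 is no measure of the locus.

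Within the variable genes, the peaks leaned toward the diversity genes. The proximal 747 kb, up to the last gene of the Ighv2 and Ighv5 families, held 10 CTCF WT peaks or 13.4 per Mb (6.42 to 24.6), while the distal 1.66 Mb, dominated by the Ighv1 family, held 7 or 4.22 per Mb (1.70 to 8.70). In ΔMAZ the counts were 14 and 4, or 18.7 (10.2 to 31.4) and 2.41 (0.657 to 6.18) per Mb. The intervals overlapped in WT and did not overlap in ΔMAZ. Repeats move with this difference: of all 50-base words of the mm10 reference, 82.1% of those in the proximal part and 70.9% of those in the distal part occur once in the genome, beside 87.4% on chromosome 12. Per Mb of such unique words the densities in WT were 16.3 and 5.96. The largest stretch without a CTCF WT peak ran for 918 kb within the distal part and held 69 variable genes, 61 of them Ighv1.

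The array of the 3' flank lay 31.9 to 38.7 kb beyond the 3' end of Igha, the last constant gene, in an intergenic interval whose nearest annotated gene is the small nuclear RNA gene Gm25622. Its 8 sites spanned 6838 bases between the first and the last WT summit, with a median of 740 bases between neighbours. Of 26245 runs of 8 neighbouring CTCF WT peaks on the chromosomes, this was the shortest, and the median run spanned 367 kb. In ΔMAZ the same run spanned 6817 bases and was again the shortest of 25904. This comparison was chosen after the peaks had been seen. The 60 bases around each motif match are shown on the + strand with the 20-base match in capitals, named by the distance of the site's summit from Igha.
38.7 kb, chr12:113216095-113216154: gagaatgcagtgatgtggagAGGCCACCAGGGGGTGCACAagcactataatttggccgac
37.4 kb, chr12:113217439-113217498: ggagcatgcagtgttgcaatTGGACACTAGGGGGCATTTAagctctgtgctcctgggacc
36.7 kb, chr12:113218063-113218122: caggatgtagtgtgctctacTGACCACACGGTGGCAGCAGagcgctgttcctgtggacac
34.8 kb, chr12:113220030-113220089: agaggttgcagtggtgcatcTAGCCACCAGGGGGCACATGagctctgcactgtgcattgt
34.2 kb, chr12:113220663-113220722: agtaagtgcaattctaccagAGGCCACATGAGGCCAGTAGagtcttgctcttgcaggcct
33.4 kb, chr12:113221385-113221444: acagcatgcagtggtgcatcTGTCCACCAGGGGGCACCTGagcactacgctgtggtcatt
32.6 kb, chr12:113222193-113222252: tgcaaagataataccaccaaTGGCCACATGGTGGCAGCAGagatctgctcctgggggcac
32.6 kb, chr12:113222458-113222517: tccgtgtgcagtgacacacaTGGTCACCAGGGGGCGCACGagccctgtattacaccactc
31.9 kb, chr12:113222930-113222989: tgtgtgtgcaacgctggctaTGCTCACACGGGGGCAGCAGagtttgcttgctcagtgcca

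All 9 matches in capitals read the same way, and the site at 32.6 kb holds a pair of matches that begin 265 bases apart. That site had the highest fold enrichment of the locus in WT for CTCF, 28.6 with 45 reads at the summit, followed by the site at 36.7 kb with 27.3 and 40 reads. The remaining 6 ranged from 8.71 to 18.6 in WT, and the 8 sites of ΔMAZ ranged from 11.1 to 29.8. Fold enrichment here is the value the peak caller gave, taken as the reads plus 1 over the local background plus 1. The reads and the background were solved from the fold and p columns.

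In ΔCTCF a single CTCF peak was called on the array, at 32.6 kb. Its CTCF fold enrichment was 28.6 in WT, 29.8 in ΔMAZ, 8.78 in ΔCTCF and 9.43 in ΔCTCF/ΔMAZ, so that the auxin lists lay below both untreated lists. A further peak was called only in ΔCTCF/ΔMAZ of the auxin lists, at 36.7 kb, with a fold enrichment of 6.28 and 9 reads. The ratio of ΔCTCF to WT at 32.6 kb was 0.307, beside a median of 0.340 over the 2331 CTCF WT peaks that kept a peak. The depth index, a relative measure taken from the lowest local background of a list, was 1.81 times as high in ΔCTCF/ΔMAZ as in ΔCTCF. For CTCF WT it was 1.58 times that of ΔCTCF, the CTCF list of lowest depth index.

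RAD21 on the array behaved unevenly. At 32.6 kb, the site with the pair of matches, RAD21 fold enrichment was 22.8 in WT, 22.7 in ΔMAZ, 22.8 in ΔCTCF and 11.4 in ΔCTCF/ΔMAZ, with 53, 62, 124 and 25 reads. The fold was as high in ΔCTCF as in WT, and the depth index of the ΔCTCF list was 2.18 times that of WT. The local background at the summit was 1.372 reads in WT and 4.485 in ΔCTCF. The 1 added to reads and background lowers the fold more where the background is low, so equal folds need not mean equal reads over background. The ΔCTCF to WT ratio of 1.00 was at or above that of 89.6% of the 7919 kept RAD21 peaks, whose median ratio was 0.496. It was also the single RAD21 peak of the locus in ΔCTCF/ΔMAZ, where the CTCF peak at the same site was called as well.

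At 2 neighbouring sites the RAD21 fold was lower in ΔCTCF than in WT. At 36.7 kb RAD21 had 10.0 in WT, 8.88 in ΔMAZ and 5.0 in ΔCTCF, and at 34.2 kb it had 13.2, 11 and 4.65. The ratios of ΔCTCF to WT were 0.500 and 0.352, at or above those of 50.5% and 27.6% of the kept RAD21 peaks, so that the first was close to the median of the list. Neither site had a RAD21 peak in ΔCTCF/ΔMAZ, and neither had a CTCF peak in ΔCTCF. At 38.7 kb a weak RAD21 peak of 4.58 was called only in WT, and at 33.4 and 31.9 kb peaks of 6.18 and 9.27 were called only in ΔMAZ. The sites at 37.4 and 34.8 kb carried CTCF in both untreated lists and RAD21 in no list. A RAD21 peak of 6.95 at 49.0 kb, outside the array and with a match of 10.5 bits on the − strand, was called only in ΔMAZ and had no CTCF peak.

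**Figure D2:**
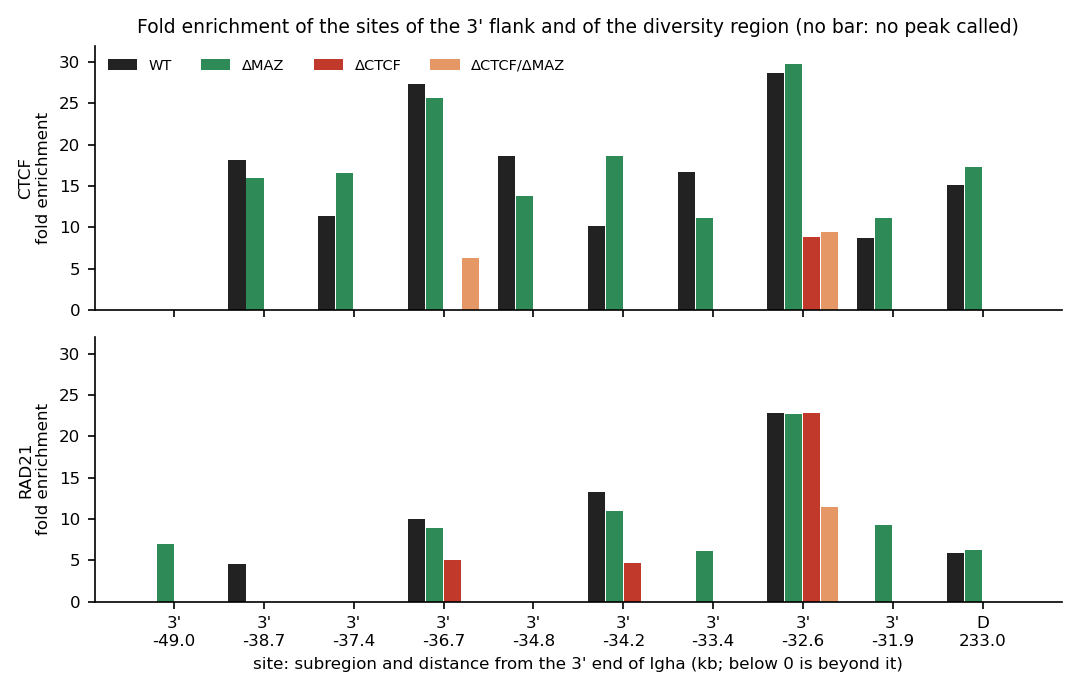
Fold enrichment of CTCF (top) and RAD21 (bottom) at the 9 sites of the 3' flank and the diversity site, each at its distance from the 3' end of Igha in kb, with 1 bar per condition and no bar where no peak was called. The site at 32.6 kb has bars in all 4 conditions for both proteins.

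Intergenic control region 1 is a pair of CTCF sites, known to lie between the variable genes and most diversity genes, that keeps proximal variable genes from joining early in developing B cells. One site was called in the diversity and joining subregion, with its summit 5.67 kb above Ighd1-1, 37.45 kb below the next diversity gene, Ighd3-1, and 1646 bases from Adam6b. It thus lay within the span of the annotated diversity genes, and the 46.1 kb between the last diversity and the first variable gene held 0 peaks in all 12 lists. CTCF fold enrichment was 15.2 in WT and 17.3 in ΔMAZ, with 28 and 24 reads, and RAD21 fold enrichment was 5.89 and 6.29. None of these peaks was called in ΔCTCF or ΔCTCF/ΔMAZ. A further match of 18.6 bits lay 3.07 kb above Ighd1-1, 2.62 kb from the first and on the opposite strand, in fully unique sequence, and had no peak in any list. Both are shown 5′ to 3′ on the strand of the match, with the match in capitals.
without a peak, chr12:113485245-113485304, − strand: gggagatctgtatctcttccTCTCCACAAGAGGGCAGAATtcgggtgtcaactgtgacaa
with a peak, chr12:113487865-113487924, + strand: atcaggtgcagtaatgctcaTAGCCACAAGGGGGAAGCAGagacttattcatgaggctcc

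Most sites among the variable genes lay just behind a coding segment. Of 24 sites with a CTCF peak, 17 had their summit within 200 bases after the 3' end of an Ighv gene, including 14 of the 16 in the proximal part and 3 of the 8 in the distal part. The end of a variable gene carries the recombination signal, a heptamer, a spacer and a nonamer that the RAG recombinase cuts. Within 200 bases after the 3' end, 40 of the 183 Ighv genes of the − strand had a CTCF motif match, all 40 on the strand of the gene. The match began at base 58 in 19 of the 40 and at base 56 to 58 in 32 of them. Of windows of 200 bases tiled over the whole variable span, 2.37% held a match, beside 21.9% of these gene ends. The first 85 bases after the 3' end are shown on the coding strand for the Ighv genes among the 5 highest and 5 lowest WT sites, with an exact heptamer and the motif match in capitals.
Ighv2-3, chr12:113611102-113611186: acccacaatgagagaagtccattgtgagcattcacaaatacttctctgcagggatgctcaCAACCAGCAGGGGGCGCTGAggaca
Ighv2-6-8, chr12:113796053-113796137: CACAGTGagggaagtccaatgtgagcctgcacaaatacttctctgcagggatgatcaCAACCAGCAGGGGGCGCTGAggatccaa
Ighv2-9, chr12:113879011-113879095: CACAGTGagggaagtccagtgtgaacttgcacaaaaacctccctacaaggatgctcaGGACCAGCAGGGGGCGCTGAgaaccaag
Ighv11-2, chr12:114048156-114048240: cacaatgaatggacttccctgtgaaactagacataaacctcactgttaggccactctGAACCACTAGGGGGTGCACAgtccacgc
Ighv10-2, chr12:114495918-114496002: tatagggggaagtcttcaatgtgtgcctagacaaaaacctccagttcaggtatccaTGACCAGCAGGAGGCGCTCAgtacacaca

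Matches occurred in 12 of 16 families and peaks in 8. The Ighv2 family had a match behind 9 of its 11 genes, all beginning at base 58 to 61, and a CTCF peak behind 4. Ighv5, the family nearest to the diversity genes, had a match behind 11 of 21 genes and a peak behind 5. Ighv7 had 4 matches in 4 genes with 2 peaks, and Ighv11 had 2 in 2 with 2 peaks. In contrast, none of the 92 genes of Ighv1, the largest family, had a match or a peak within 200 bases, and the 4 genes each of Ighv9 and Ighv14 had none. Of the 17 genes with a peak, 16 are annotated as functional and 1 as a pseudogene, among 113 functional genes and 70 pseudogenes. Functional genes also held 33 of the 40 matches.

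**Figure D3:**
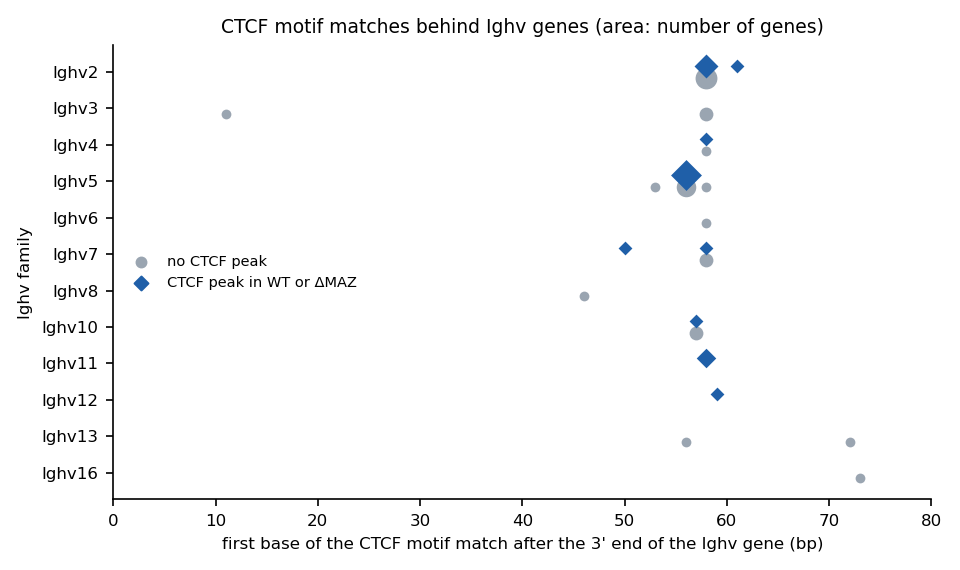
First base of the CTCF motif match after the 3' end of each Ighv gene, by family, for the 40 genes with a match. Blue diamonds are genes with a CTCF peak in WT or ΔMAZ, grey circles are genes without one, and area gives the number of genes at that position. Most matches begin at base 56 to 58, in bound and unbound genes alike.

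Of the 17 genes with a CTCF peak, 16 had a match. Of the 40 genes with a match 16 had a peak, beside 17 of all 183 genes, and of the 13 with a strong match, 8 had one. The median share of unique 50-base words over the 200 bases was 99.3% for matches with a peak and 100.0% for those without. One bound gene, Ighv6-7, had no match, and its best 20 bases, which also began at base 58, scored 6.13 bits against the threshold of 9.36. It was singled out after its values were seen.

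The named sites of the variable genes spanned a wide range of enrichment. Ighv2-3 had the strongest CTCF, 15.3 in WT and 23.5 in ΔMAZ, with RAD21 at 6.52 in WT, 5.41 in ΔMAZ and 5.72 in ΔCTCF. The ΔCTCF peak of RAD21 stood where no CTCF peak was called in ΔCTCF. That CTCF list had the lowest depth index of its antibody, so a weak CTCF signal there may have gone uncalled. Ighv2-9 had 11.8 and 11.1 for CTCF in WT and ΔMAZ, and no RAD21 peak. Ighv11-2 had 10.6 and 9.05 for CTCF, with RAD21 at 6.75 and 6.85. At the low end, the pseudogene Ighv10-2 had a CTCF fold enrichment of 5.42 in WT alone, and Ighv2-6-8 had 6.66 in WT and 6.23 in ΔMAZ.

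One site stood apart in its balance of both proteins. It lay 5.58 kb from Ighv9-3, between variable genes, and CTCF was weak there, at 5.58 in WT and 5.29 in ΔMAZ with 9 and 8 reads. RAD21 reached 21.3 in WT, 17.0 in ΔMAZ and 6.56 in ΔCTCF, with 56, 51 and 35 reads, and had no peak in ΔCTCF/ΔMAZ. Its RAD21 WT fold was higher than 84.7% of that list while its CTCF WT fold was higher than only 4.14% of its own. The match of 12.9 bits on the − strand is in capitals.
5.58 kb from Ighv9-3, chr12:114135077-114135136: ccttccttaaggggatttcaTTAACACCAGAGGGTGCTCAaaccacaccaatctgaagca

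The distal sites were placed differently. Of 8 distal sites with CTCF, 4 carried a strong match that lay before the 5' end of an Ighv1 gene, by 824 bases for Ighv1-65, 785 for Ighv1-67, 807 for Ighv1-69 and 779 for Ighv1-72. One more, in the 5' flank and called only in ΔMAZ, lay 958 bases before Ighv1-86. The highest in WT was that of Ighv1-67, with CTCF at 11.9 in WT and 7.53 in ΔMAZ and RAD21 at 4.01 and 3.21. Before Ighv1-69, CTCF had 9.56 in WT and 9.97 in ΔMAZ and RAD21 had 9.95 in WT alone. Ighv1-72 had CTCF at 5.99 in WT alone. These sequences recur. The same 20 bases were found 14 times in the distal part, and a CTCF peak stood at 2 of them, before Ighv1-69 and Ighv1-72. The windows around the 14 copies hold 28.7 to 79.3% unique words, and those around the pair with a peak 45.3 and 68.7%, so that reads there can map to several copies. The sequences are shown on the − strand with the match in capitals.
before Ighv1-67, chr12:115605141-115605200: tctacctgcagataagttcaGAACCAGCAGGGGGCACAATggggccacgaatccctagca
before Ighv1-69, chr12:115624382-115624441: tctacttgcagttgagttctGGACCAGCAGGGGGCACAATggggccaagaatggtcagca
before Ighv1-72, chr12:115759220-115759279: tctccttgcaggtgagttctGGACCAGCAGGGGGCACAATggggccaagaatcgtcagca

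The highest CTCF fold outside the array in WT was in the 5' flank. A site 18.2 kb beyond Ighv1-86, the last gene of the locus, had CTCF at 22 in WT and 22.9 in ΔMAZ with 32 reads in each and no RAD21 peak in any list. Its match of 10.3 bits on the − strand, shown in capitals below, was close to the threshold. A peak of 5.99 in WT alone lay within Zfp386, a zinc finger gene, and its match was on the + strand.
18.2 kb beyond Ighv1-86, chr12:116028263-116028322: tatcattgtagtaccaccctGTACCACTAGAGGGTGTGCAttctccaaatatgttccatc

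Among the variable genes the strong matches leaned to the − strand beyond the called peaks too. Of 80 strong matches in the 2.86 Mb, 72 lay on the − strand, or 90%, beside 49.4% of 3396 on the rest of chromosome 12. The variable genes held 67 on the − strand and 2 on the + strand, and all 51 of the distal part were on the − strand. Toward the 3' end of the locus the strands were mixed. The 3' flank held 4 on the + strand and 2 on the − strand. The constant subregion and the diversity and joining subregion each held 1 on either strand. A CTCF peak of WT or ΔMAZ stood at 18 of the 80, or 22.5% (95% Wilson interval 14.7 to 32.8), beside 14.6% on the rest of chromosome 12. In the proximal part it stood at 8 of 17, or 47.1% (26.2 to 69.0), and in the distal part at 5 of 51, or 9.80% (4.26 to 21), intervals that did not overlap. Among matches in windows with at least 90% unique words, read at every 10th base in the locus and on the rest of the chromosome alike, it stood at 14 of 37 in the locus, or 37.8% (24.1 to 53.9), beside 27.3% elsewhere. The proximal and distal parts gave 6 of 11 and 3 of 16 in such windows, with intervals of 28.0 to 78.7% and 6.59 to 43.0%, which overlapped. With the words read at every base, the counts were 14 of 39 in the locus, 6 of 11 in the proximal part and 3 of 18 in the distal part. Matches are copies of one another in part, so these counts are not independent.

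**Figure D4:**
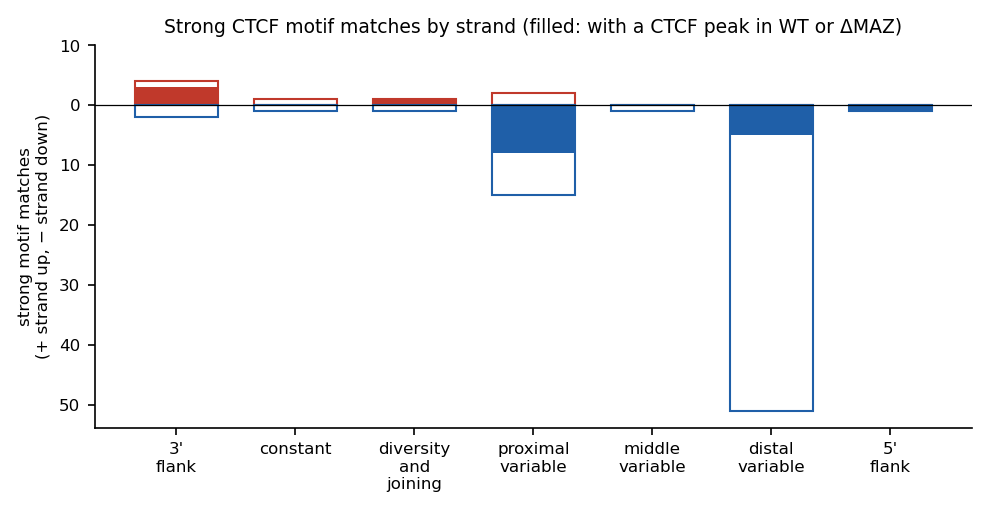
Number of strong CTCF motif matches by subregion, with the + strand upward in red and the − strand downward in blue. Filled bars are matches with a CTCF peak in WT or ΔMAZ. The distal variable part has 51 matches, all on the − strand, of which 5 have a peak.

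After auxin the share of CTCF peaks kept in the locus had an interval that included the share of the whole list. Of 28 CTCF WT peaks, 1 overlapped a ΔCTCF peak, or 3.57% (95% Wilson interval 0.633 to 17.7), beside 8.83% of all CTCF WT peaks. Of 29 ΔMAZ peaks, 2 overlapped a ΔCTCF/ΔMAZ peak, or 6.90% (1.91 to 22), beside 9.72% of all. Between the untreated lists, 21 of 28 WT peaks were called in ΔMAZ, or 75% (56.6 to 87.3), beside 85.5% of all and 79.1% of all when weighted to the fold enrichment of the locus peaks, taken in 5 classes of equal size. In the other direction, 21 of 29 ΔMAZ peaks were called in WT, or 72.4% (54.3 to 85.3), beside 86.7% of all, which lay above the interval, and 81.9% weighted in the same way, which lay inside it. The 8 peaks of the array and the diversity site were all shared, whereas 11 of 17 in the variable genes were, or 64.7% (41.3 to 82.7). The 7 sites called only in WT had 8 to 13 reads, while the shared ones had 9 to 45 reads in WT. The 8 called only in ΔMAZ, 27.6% of the ΔMAZ peaks of the locus beside 13.3% of that list, had 6 to 9 reads. In ΔMAZ the shared ones had 7 to 42 reads. The sites called in a single list thus had few reads, as did the weakest of the shared sites. At shared sites the median ratio of ΔMAZ to WT fold was 0.948, beside 0.956 over all shared peaks, and for RAD21 it was 0.829 over 9 shared sites, 2 of them higher in ΔMAZ, beside 0.999.

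A smaller share of CTCF peaks overlapped RAD21 in the locus than in the whole lists. Of 28 CTCF WT peaks, 10 overlapped a RAD21 WT peak, or 35.7% (20.7 to 54.2), beside 66.3% of all CTCF WT peaks. In ΔMAZ it was 14 of 29, or 48.3% (31.4 to 65.6), beside 66.7%. Both intervals lay below the share of all peaks. With a gap of up to 500 bases allowed, the WT count was 14 of 28, or 50.0%, and its interval, 32.6 to 67.4%, included the 67.2% of all peaks. CTCF peaks of the locus were also weaker than most, with a median WT fold of 9.44 against 13.3 over the list. With all peaks weighted to the fold enrichment of the locus peaks in the same way, their share was 57.1% in WT, which lay above the interval of the locus, and 58.8% in ΔMAZ, which lay inside it. In the other direction, 10 of 11 RAD21 WT peaks stood at a CTCF WT peak, or 90.9% (62.3 to 98.4), beside 86.0% of all. In ΔMAZ 14 of 16 did, or 87.5% (64 to 96.5), beside 83.3% of all. The RAD21 WT peak without a CTCF WT peak lay 2.86 kb from Ighv3-3 and overlapped a CTCF peak of ΔMAZ.

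RAD21 was kept at some sites after CTCF degradation and appeared at no others. Of 11 RAD21 WT peaks, 5 overlapped a ΔCTCF peak, or 45.5% (21.3 to 72.0), beside 38.9% of all, namely the sites at 36.7, 34.2 and 32.6 kb, Ighv2-3 and the site near Ighv9-3. All 5 RAD21 ΔCTCF peaks of the locus were at RAD21 WT peaks, so that 0 of 5 were absent from WT, beside 55.9% of all RAD21 ΔCTCF peaks. The Wilson interval of the share at WT peaks, 56.6 to 100.0%, lay above the 44.1% of the whole list, and its lower end was close to the 55.5% of the list weighted by fold enrichment as above. Of the 5, 1 had a CTCF peak in ΔCTCF, or 20% (3.62 to 62.5), beside 11.9% of all RAD21 ΔCTCF peaks. Of 16 RAD21 ΔMAZ peaks, 1 overlapped a ΔCTCF/ΔMAZ peak, or 6.25% (1.11 to 28.3), beside 22.4% of all and 12.1% weighted by fold enrichment, and 9 of 11 RAD21 WT peaks were called in ΔMAZ, or 81.8% (52.3 to 94.9), beside 83.5%. In the other direction, 9 of 16 RAD21 ΔMAZ peaks were called in WT, or 56.2% (33.2 to 76.9), beside 81.5% of all, which lay above the interval, and 72.4% weighted by fold enrichment, which lay inside it. The depth index of the RAD21 ΔMAZ list was 1.29 times that of WT. The RAD21 ΔMAZ list had a depth index 1.39 times that of ΔCTCF/ΔMAZ, and scaled down by that ratio it gave 1 of 16, beside 22.6% of all.

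**Figure D5:**
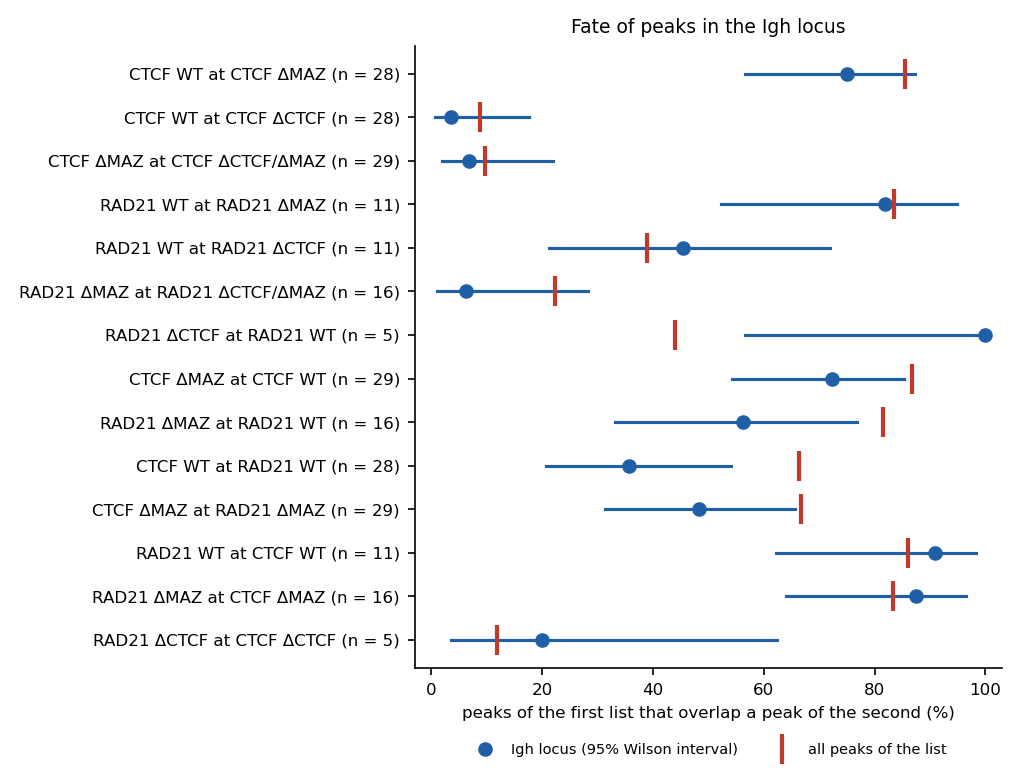
Share of peaks of the first list that overlap a peak of the second by at least 1 base. Blue points and lines are the Igh locus with 95% Wilson intervals for counting error only, and red marks are all peaks of the same list. The locus lies above the list for RAD21 ΔCTCF at RAD21 WT and below it for CTCF at RAD21 in WT and in ΔMAZ and for the ΔMAZ lists of CTCF and RAD21 at their WT lists, and its intervals include the list's share in the other 9 rows.

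Measured along the direction of the match, the RAD21 WT summit was past the centre of the match at 7 of 11 sites with a median of 22 bases and a range of -37 to 58, and in ΔMAZ at 12 of 16 with a median of 20.5 bases. Over CTCF peaks of all chromosomes with a strong match and 1 RAD21 peak, the median was 20 bases in both lists, and the summit was past the centre at 85% of 8944 in WT and 87.3% of 8772 in ΔMAZ. The count in the locus covers weak matches too.

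The same lists were read at other antigen receptor loci. RAD21 WT density was 3.97 per Mb in the Igk light chain locus, 5.80 in Tcra and Tcrd and 3.91 in Tcrb, beside 3.85 in Igh, and all 4 intervals overlapped. In WT, CTCF density was 3.67 per Mb in Igk, 8.44 in Tcra and Tcrd and 11.7 in Tcrb, beside 9.81 in Igh. The interval of Igk, 1.9 to 6.41, lay below that of Igh, 6.52 to 14.2, while those of the T cell receptor loci overlapped that of Igh. CTCF WT peaks stood at a RAD21 WT peak in 6 of 12 for Igk, 11 of 16 for Tcra and Tcrd and 3 of 9 for Tcrb, beside 10 of 28 in Igh, and the Wilson intervals of all 4 overlapped. RAD21 ΔCTCF peaks absent from WT were 5 of 6 in Igk, 4 of 9 in Tcra and Tcrd, 0 of 2 in Tcrb and 0 of 5 in Igh. The lack of MAZ peaks was not particular to Igh. In WT, MAZ had 0 peaks in Igk, in Tcra and Tcrd and in Tcrb too, and in ΔCTCF it had 0, 0 and 1.

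The strain limits these counts. E14 cells derive from a 129 substrain, whereas the reads were mapped to mm10, which is C57BL/6J, and the Igh haplotypes of these strains differ. A reference scaffold of the related strain 129S1/SvImJ aligned to chr12:113208115-114458697. Of 27 sites in that interval, 26 aligned over at least 190 bases around the match, and the motif match was identical in 18 of the 26 sites that have one in mm10, which are not all the same sites, including 7 of 8 of the array, whereas that of the diversity site was not identical. The scaffold held 43 strong matches in 1.64 Mb, against 28 in the 1.25 Mb of mm10. The scaffold held 9 copies of the match of Ighv2-3, the variable site with the highest CTCF fold. In mm10 the same match lay behind Ighv2-3, Ighv2-6 and Ighv2-6-8. The match of Ighv5-6 had 7 copies in the scaffold, whereas the identical matches of the array had 1 copy each. Reads from several such copies may map to a single place in mm10. What the haplotype and these copies do to the calls was not tested.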

How the data were processed

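Peak lists were analysed for 12 of 20 samples, 1 per antibody (CTCF, MAZ, RAD21) and condition. The other 8, a second CTCF and MAZ sample of each condition per the labels, were not analysed here. The authors mapped reads to mm10 with Bowtie2 and called narrow peaks with MACS per sample. Whether an input was used is not given in the sources used here. The deposited columns hold a score, the fold enrichment ratio at the summit, −log10 p-values and −log10 q-values, and the summit position. No read totals were used, so the depth of each library is unknown, and the depth index (lowest local background of a list divided by its smallest peak width) compares lists in relative terms only.

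A peak belonged to a subregion by its summit. Peaks were called shared when they overlapped by at least 1 base. Shares carry 95% Wilson intervals and densities exact Poisson intervals, which cover counting error only. The CTCF matrix (20 bases) was built from 22987 windows at CTCF WT summits off chromosome 12. A match scored at least 9.36 bits, the level reached by 5% of windows beside the summits, and 90.1% of 26392 WT summits had one. Strong matches reached the median of the summits. Overlaps, reads and matches were checked on simulated data. Of 24 diversity and joining genes, 23 were identical between genome and annotation. Python 3.11.15 with numpy 2.4.6 and pandas 2.3.3, bedtools 2.31.1 (check of overlaps), minimap2 2.31 and blastn 2.17.0 (strain scaffold) were used.

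Named sites were those of the 3' flank, constant, diversity and joining subregions and, among the variable genes and 5' flank, the 5 highest and 5 lowest by CTCF WT fold and those with a peak in an auxin list. The sites before Ighv1-65, Ighv1-69 and Ighv1-86 and those near Ighv3-3 and at Ighv6-7 were named after their values were seen. The 200-base window after Ighv genes, the runs of 8 peaks and the match classes were chosen after the data were seen. The locus, its subregions and all rules were chosen with earlier results of these data known. Stricter q limits, merging, other overlap rules, equal list sizes, unique length and scaling by the depth index were tried as alternatives.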

Additional observations from a re-analysis of the deposited data

How the results depend on the processing

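The 21 densities and shares were recomputed to give 83 alternative values, of which 76 stayed within the 95% interval of the value reported. The MAZ lists had no peak in the locus under the settings tried, and without their densities the count was 64 of 71. Merging overlapping peaks changed no count in the locus, and its values are among the 64. Intervals from few peaks are also wide, such as 0.0 to 43.5% for the 0 of 5 RAD21 ΔCTCF peaks absent from WT. Staying within an interval is therefore a weak check. With a −log10 q of at least 10, density per Mb was 6.30 for CTCF WT, 5.60 for CTCF ΔMAZ, 0.0 for CTCF ΔCTCF and 2.80 for RAD21 ΔMAZ, since fewer peaks were counted. With equal numbers of the strongest peaks in both lists, 1 of 1 CTCF WT peak of the locus had a ΔCTCF peak and 1 of 1 CTCF ΔMAZ peak had a ΔCTCF/ΔMAZ peak, or 100.0% each, and 1 of 2 RAD21 ΔMAZ peaks had a ΔCTCF/ΔMAZ peak, or 50.0%, beside 42.5%, 51.4% and 51.7% of all peaks, because the shorter list sets how many peaks enter. With a gap of up to 500 bases allowed, CTCF WT peaks with a ΔCTCF peak were 2 of 28, CTCF ΔMAZ peaks with a ΔCTCF/ΔMAZ peak were 4 of 29 and RAD21 ΔMAZ peaks with a ΔCTCF/ΔMAZ peak were 2 of 16, beside 9.13%, 10.1% and 23.4% of all. With the RAD21 ΔCTCF list scaled down by its depth index over that of WT, which need not equal the ratio of read totals, all 5 of its peaks in the locus were kept and 0 were absent from WT, beside 43.9% of the whole scaled list and 55.9% of the list as deposited. The share of CTCF WT peaks at RAD21 WT ranged from 32.1 to 50.0% over 4 alternative settings, and its interval included the share of all peaks with the gap of up to 500 bases. No paired analysis was possible because a single list was used for every condition. Each value rests on a single list, and the effect of the strain on the calls was not tested.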
